A study of Mus musculus with 12 samples.

Results

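The transcripts of 10 non-fibrillar collagen chains were followed in mouse scars formed with or without traction force, in mice with and without Tem1. The chains were taken by symbol from the count files: Col6a1, Col6a2, Col6a3, Col7a1, Col8a1, Col12a1, Col14a1, Col15a1, Col16a1 and Col18a1. All 10 were among the 35976 genes listed, and all 10 were among the 18853 genes that passed the filter on low counts and were tested.

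The study asked whether TEM1, a transmembrane protein of fibroblasts and pericytes encoded by Cd248, takes part in scarring induced by stretching. RNA was sequenced from scars of 4 groups with 3 libraries each. The groups were Tem1WT/WT mice without traction (WTSH) and with traction (WTTR), and Tem1lacZ/lacZ mice without traction (lacZSH) and with traction (lacZTR). All were male mice aged 8 to 12 weeks with a 1.5-cm wound in the back skin and a plastic device on it from day 6. In the traction groups the device was lengthened by 1 mm per day to 8 mm in all, while in the sham groups it was worn without lengthening. In Tem1lacZ/lacZ mice the only exon of Tem1 is replaced by the lacZ reporter in every cell of the body, on a line crossed back to C57BL/6J, so the loss is neither induced nor limited to a cell type. Each library was made from one part of a scar, which holds many cell types.

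Collagens that do not build the large banded fibrils organize what lies around them. Type VI forms beaded microfilaments close to cells, types XII, XIV and XVI decorate fibril surfaces or bridge to other matrices, type VII makes the anchoring fibrils that fasten epidermis to dermis, type VIII builds short-chain networks around vessels and in repairing tissue, and types XV and XVIII are proteoglycan collagens of basement membrane zones. In skin many of these proteins are made by fibroblasts, type VII by keratinocytes as well as fibroblasts, and types VIII, XV and XVIII also by vascular cells.

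Library totals were between 41536788 and 64644293 counts, with 21855 to 23692 genes detected. Cd248 had 3883 to 16413 counts in the 6 Tem1WT/WT libraries and 0 to 13 in the 6 Tem1lacZ/lacZ libraries, which fits the labels. Libraries stood apart in the RNA of other cells. The summed level of 8 neutrophil genes was 7057 CPM (counts scaled to the size of the library, TMM-normalized) in WTTR replicate 1 against 666 in replicate 2 and 314 in replicate 3, and 116 to 121 in the WTSH libraries. The summed level of 8 skeletal muscle genes was 14162 CPM in WTSH replicate 1 against 3919 in replicate 2 and 1347 in replicate 3. The summed level of 8 basal keratinocyte genes was 31669 CPM in lacZTR replicate 1 against 7569 in replicate 2 and 8524 in replicate 3, and lacZTR replicate 1 was the lowest of its group for all 10 chains. The summed level of 8 adipocyte genes also differed within groups, from 317 to 3013 CPM in lacZSH and from 214 to 1972 CPM in lacZTR. That of 7 hair follicle genes was 1995, 15292 and 7996 CPM in lacZSH replicates 1, 2 and 3. For traction and genotype, some results are also given with WTSH replicate 1, WTTR replicate 1 or lacZTR replicate 1 left out, for single chains or as a median over the chains.

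The genes lie on 6 chromosomes of GRCm38. Col6a2 (chromosome 10, 76595756 to 76623630), Col6a1 (76708792 to 76726044) and Col18a1 (77052178 to 77166530) lie in this order on the minus strand, with Col18a1 farther off. Col7a1 and Col12a1 are far apart on chromosome 9. Of the 250 bases before the transcript starts that RefSeq gives for GRCm38.p6, 10 windows from 8 of the chains were read, while Col12a1 and Col14a1 had no entry. The windows of Col7a1 and Col18a1 are shown because these are chains that passed the test for traction, and those of Col6a1 and Col6a2 because their levels moved most closely together. Col6a2 has a second window (chr10:76623405-76623654) that overlaps the one shown and holds 3 GC boxes and 1 TEAD match, and it is not printed. Capitals mark matches, on either strand, of the GC box (GGGCGG), the AP-1 site (TGANTCA), the TEAD site (GGAATG) or the RUNX site (TGTGGT).
Col6a1 (chr10:76726045-76726294, minus strand): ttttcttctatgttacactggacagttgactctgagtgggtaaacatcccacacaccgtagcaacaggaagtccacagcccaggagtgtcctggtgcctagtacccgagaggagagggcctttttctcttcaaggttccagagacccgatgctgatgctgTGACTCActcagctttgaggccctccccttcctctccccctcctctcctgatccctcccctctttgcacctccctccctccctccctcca
Col6a2 (chr10:76623631-76623880, minus strand): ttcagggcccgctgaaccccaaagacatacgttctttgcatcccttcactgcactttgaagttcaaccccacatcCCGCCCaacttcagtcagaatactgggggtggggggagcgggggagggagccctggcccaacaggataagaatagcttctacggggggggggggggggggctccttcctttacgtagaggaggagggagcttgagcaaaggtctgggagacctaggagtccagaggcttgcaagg
Col7a1 (chr9:108953336-108953585, plus strand): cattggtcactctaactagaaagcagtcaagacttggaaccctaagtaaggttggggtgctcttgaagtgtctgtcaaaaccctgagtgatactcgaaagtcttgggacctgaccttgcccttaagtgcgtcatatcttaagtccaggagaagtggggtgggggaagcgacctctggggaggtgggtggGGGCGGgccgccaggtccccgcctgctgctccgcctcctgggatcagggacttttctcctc
Col18a1 upstream start (chr10:77166531-77166780, minus strand): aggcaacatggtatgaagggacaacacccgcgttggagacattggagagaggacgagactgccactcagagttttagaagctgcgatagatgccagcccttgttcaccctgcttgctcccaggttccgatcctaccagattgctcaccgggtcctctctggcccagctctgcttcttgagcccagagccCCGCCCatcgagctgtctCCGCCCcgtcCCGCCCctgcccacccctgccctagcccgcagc
Col18a1 downstream start (chr10:77113706-77113955, minus strand): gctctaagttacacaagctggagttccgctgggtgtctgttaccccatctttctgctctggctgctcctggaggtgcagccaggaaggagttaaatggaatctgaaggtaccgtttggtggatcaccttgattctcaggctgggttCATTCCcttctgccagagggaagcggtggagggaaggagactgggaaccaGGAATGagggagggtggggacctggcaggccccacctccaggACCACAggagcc

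The letters of the GC box stood in 6 of the 10 windows, against 32.7% of 32851 promoter windows of the same length. The AP-1 letters stood in 1, in Col6a1 from base -90 counted back from the start, against 6.75% of all windows. Those of TEAD stood in 2 (12.6% of all) and those of RUNX in 2 (14% of all), and TATAAA, the TATA box, stood in 0 of the 10 (12.4% of all). Col6a1 and Col6a2 held different motifs. In the upstream window of Col18a1 there were 3 GC boxes, and in the downstream window 2 TEAD matches and 1 RUNX match; the counts do not separate transcripts from these starts. A match describes the letters and not the binding of a factor.

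In Tem1WT/WT mice Col12a1, Col7a1 and Col18a1 rose with traction. All 10 chains had a higher fitted level in WTTR than in WTSH, with a median log2 fold change of 1.32 (0.38 to 2.91), where the median over all genes tested was -0.01. The test was edgeR's quasi-likelihood test, passed at an adjusted p under 0.05 over all genes tested. The chains that passed are 3 of 10 chains, against 5.61% of all genes called higher in this comparison. The 3 traction libraries lay above the 3 sham libraries without overlap for 5 chains, Col12a1, Col7a1, Col18a1, Col15a1 and Col6a3, against 17.7% of all genes. Because scars were sequenced as bulk tissue, more cells of a type and more RNA per cell cannot be told apart here or in any comparison that follows.

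**Figure D1:**
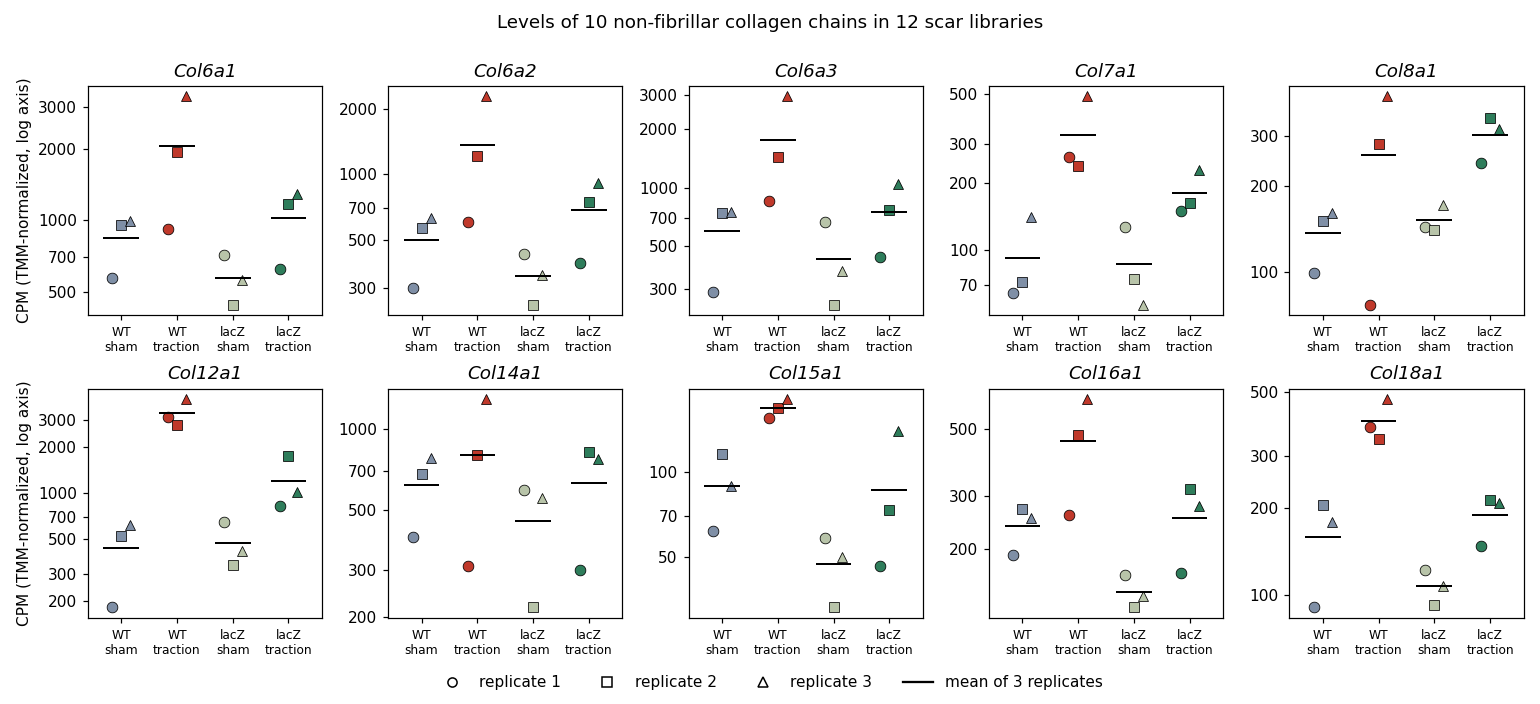
Each panel plots the TMM-normalized CPM of 1 chain on a log axis by group, with a point per library (circle, square and triangle for replicates 1, 2 and 3) and a line at the mean of 3 libraries. For Col12a1 the 3 WTTR libraries, at 2751 to 4087 CPM, sit above the 9 other libraries, and for Col14a1 the 4 groups overlap.

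Col12a1 encodes the chain of type XII collagen, which is attached to the surface of collagen fibrils and is known from tissues under mechanical load. Its level was 181, 523 and 622 CPM in WTSH and 3102, 2751 and 4087 CPM in WTTR. In the Tem1lacZ/lacZ groups it was 648, 343 and 422 CPM without traction and 824, 1743 and 1010 CPM with it. The WTTR libraries were thus the 3 highest of the 12, the lacZTR libraries the next 3, and the 6 sham libraries the lowest. The log2 fold change with traction in Tem1WT/WT mice was 2.91 ± 0.47 (SE, n = 3 against 3, a 7.50-fold rise), with an adjusted p of 0.0242 in edgeR's quasi-likelihood test.

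Col14a1 encodes type XIV collagen, a close relative of type XII with the same place on fibrils, and its levels overlapped among all groups. They came to 396, 678 and 778 CPM in WTSH and 310, 803 and 1294 CPM in WTTR, so that 1 WTTR library lay below all WTSH libraries and another above them. The lacZSH libraries had 594, 217 and 552 CPM and the lacZTR libraries 298, 819 and 775 CPM. With traction in Tem1WT/WT mice the log2 fold change was 0.38 with a 95% interval of -0.85 to 1.60, an interval that holds both a fall and a 3-fold rise (edgeR's quasi-likelihood test, adjusted p = 0.679).

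Col16a1 encodes a minor collagen found in skin with fibrillin microfibrils and near the basement membrane zone. It had 191, 270 and 253 CPM in WTSH and 258, 478 and 628 CPM in WTTR. The lowest WTTR library lay between the 2 upper WTSH libraries, and the log2 fold change of 0.94 did not pass the test (adjusted p = 0.0790, edgeR's quasi-likelihood test). Its levels were 163, 128 and 139 CPM in lacZSH and 165, 316 and 277 CPM in lacZTR. Here the lacZSH libraries were all below the other 9.

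Col7a1 encodes the chain of the anchoring fibrils. Its levels were 64.4, 71.8 and 141 CPM in WTSH and 260, 238 and 489 CPM in WTTR, and 128, 74.6 and 57.0 CPM in lacZSH and 150, 162 and 229 CPM in lacZTR. The lowest library with traction was above the highest sham library in each genotype. In Tem1WT/WT mice the log2 fold change was 1.83 ± 0.41 (SE, n = 3 against 3), with an adjusted p of 0.0329 in edgeR's quasi-likelihood test.

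Col18a1 encodes type XVIII collagen, the basement membrane chain from which endostatin is released. It had 91.0, 205 and 179 CPM in WTSH, 378, 343 and 472 CPM in WTTR, 123, 92.7 and 108 CPM in lacZSH and 148, 213 and 207 CPM in lacZTR. WTTR was the highest group without overlap, and the lacZTR libraries overlapped with WTSH. The rise with traction in Tem1WT/WT mice was 1.33 ± 0.28 on the log2 scale (SE, n = 3 against 3), with an adjusted p of 0.0311 in edgeR's quasi-likelihood test.

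Col15a1, its partner in the multiplexin family and likewise a proteoglycan core of basement membrane zones, was the least abundant chain per length in 3 of the 4 groups. Its levels were 62.0, 116 and 89.1 CPM in WTSH, 155, 168 and 181 CPM in WTTR, 58.6, 33.1 and 50.1 CPM in lacZSH and 46.4, 73.3 and 139 CPM in lacZTR. The WTTR libraries were above the 9 others, and the lacZSH libraries were all below WTSH. For traction in Tem1WT/WT mice the log2 fold change was 0.92, with an adjusted p of 0.117 in edgeR's quasi-likelihood test.

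The chains of type VI collagen, Col6a1, Col6a2 and Col6a3, assemble into 1 molecule. Col6a1 had 570, 958 and 993 CPM in WTSH, 920, 1951 and 3338 CPM in WTTR, 714, 441 and 564 CPM in lacZSH and 622, 1170 and 1294 CPM in lacZTR. Col6a2 had 298, 568 and 626 CPM, 600, 1216 and 2289 CPM, 431, 250 and 343 CPM, and 388, 748 and 915 CPM in the same order of groups. Col6a3 had 290, 744 and 749 CPM, 858, 1440 and 2963 CPM, 665, 249 and 373 CPM, and 441, 770 and 1050 CPM. In each of these chains WTTR replicate 3 was far above the other libraries and WTTR replicate 1 was near the highest WTSH library. With traction in Tem1WT/WT mice their log2 fold changes were 1.30, 1.46 and 1.56, with adjusted p of 0.0788, 0.0747 and 0.0863 in edgeR's quasi-likelihood test, so none of the 3 passed.

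Col8a1 encodes a short chain of the network that type VIII collagen forms in vessel walls and healing tissue. It had 99.2, 151 and 161 CPM in WTSH, 76.6, 281 and 413 CPM in WTTR, 144, 141 and 171 CPM in lacZSH and 241, 347 and 318 CPM in lacZTR. WTTR replicate 1 was the lowest of all 12 libraries, and the lacZTR libraries were all above both sham groups. The log2 fold change with traction was 0.90 in Tem1WT/WT mice, with an adjusted p of 0.199 in edgeR's quasi-likelihood test.

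The calls for traction in Tem1WT/WT mice depended on single libraries, while the direction seldom did. Without WTSH replicate 1, the lowest library of its group for all 10 chains and the one with the most skeletal muscle transcripts in that group, the log2 fold changes were 2.53 for Col12a1, 1.63 for Col7a1 and 1.05 for Col18a1, and 0 of the 10 passed (edgeR's quasi-likelihood test, adjusted p = 0.109, 0.127 and 0.116). No gene at all passed in that fit, or in the fit without WTSH replicate 2, where the same 3 values were 3.06, 1.70 and 1.58 with adjusted p of 0.0869, 0.0998 and 0.0869 in edgeR's quasi-likelihood test. Without WTTR replicate 1, the library rich in neutrophil transcripts, Col12a1 (2.93, adjusted p = 0.0384) and Col8a1 (1.32, adjusted p = 0.0433) passed in edgeR's quasi-likelihood test, while Col7a1 (1.95, adjusted p = 0.0508) and Col18a1 (1.34, adjusted p = 0.0519) did not. Without WTTR replicate 3, the highest library of its group for all 10 chains, or without lacZSH replicate 3, only Col12a1 passed. In these 2 fits the adjusted p of edgeR's quasi-likelihood test was 0.0718 and 0.0512 for Col7a1 and 0.0605 and 0.0522 for Col18a1. Of all genes 1.44% were called higher without WTTR replicate 1, 3.05% without WTTR replicate 3 and 0.635% without lacZSH replicate 3. With DESeq2 7 of the 10 passed, against 11.9% of all genes called higher by that test.

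The other chains moved with the same libraries. Without WTSH replicate 1 the log2 fold changes were 1.08 for Col6a1, 1.19 for Col6a2, 1.23 for Col6a3, 0.71 for Col8a1, 0.14 for Col14a1, 0.71 for Col15a1 and 0.79 for Col16a1. Without WTTR replicate 1 they were 1.63 for Col6a1, 1.79 for Col6a2, 1.86 for Col6a3, 0.74 for Col14a1, 0.95 for Col15a1 and 1.20 for Col16a1, and none of these 6 passed. The median over the 10 chains was 1.06 without WTSH replicate 1 and 1.49 without WTTR replicate 1.

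In Tem1lacZ/lacZ mice no chain passed for traction, and the fitted changes were positive, smaller than in Tem1WT/WT mice for 8 of the 10 chains. All 10 chains were higher in lacZTR than in lacZSH, with a median log2 fold change of 0.86 (0.47 to 1.34), where the median over all genes was -0.01. By edgeR's quasi-likelihood test 0 of the 10 passed, as did 0% of all genes, and the smallest adjusted p of any gene was 0.598. At an unadjusted p under 0.05 there were 5 chains (Col12a1, Col7a1, Col15a1, Col16a1 and Col18a1), against 8.12% of all genes. DESeq2 called 0 of the chains, and limma-voom with sample weights called 1, Col16a1, against 1.84% of all genes called higher. Without lacZTR replicate 1 the median of the chains was 1.16 (0.85 to 1.59), 0 of the 10 passed with a smallest adjusted p of 0.0981 in edgeR's quasi-likelihood test, and 73 genes of all those tested passed. The lacZTR libraries lay above the lacZSH libraries without overlap for 5 chains, Col7a1, Col8a1, Col12a1, Col16a1 and Col18a1, against 6.77% of all genes. The log2 fold changes were 1.34 ± 0.45 for Col12a1, 1.06 ± 0.40 for Col7a1, 0.99 ± 0.46 for Col8a1 and 0.81 ± 0.28 for Col18a1 (SE, n = 3 against 3). Those of the type VI chains were 0.84 for Col6a1, 1.001 for Col6a2 and 0.81 for Col6a3, and those of the rest were 0.87 for Col15a1, 0.82 for Col16a1 and 0.47 for Col14a1.

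**Figure D2:**
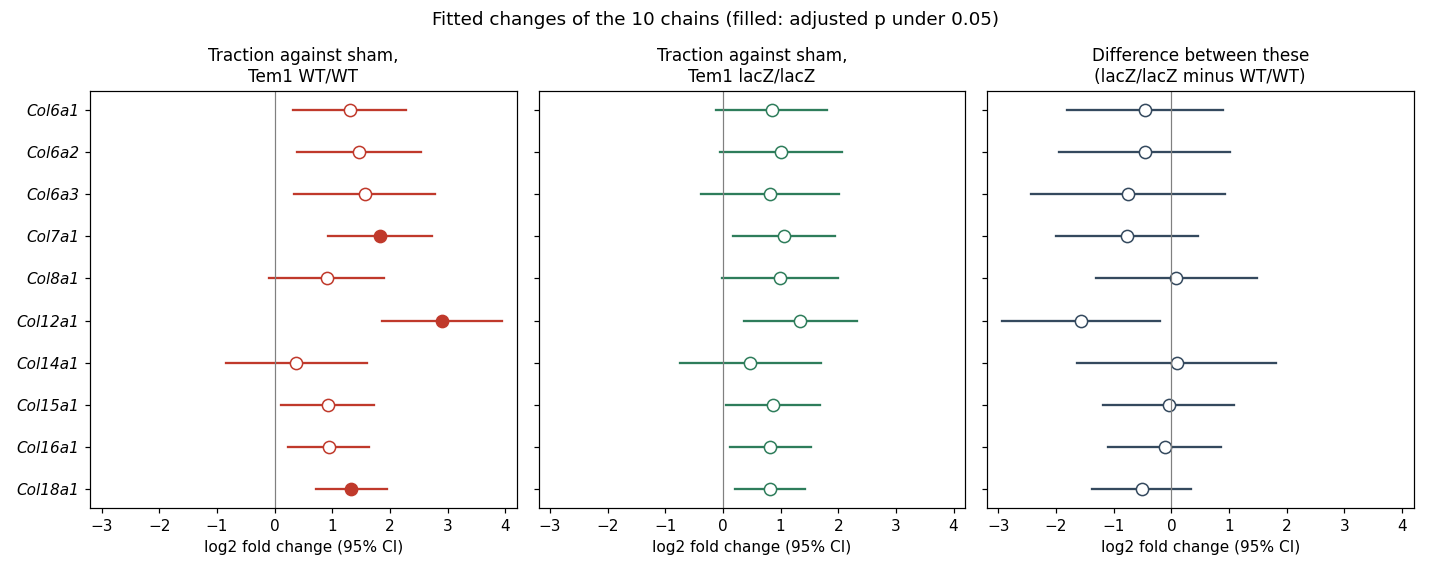
Points give the fitted log2 fold change of each chain with its 95% interval for traction against sham in Tem1WT/WT mice (left), in Tem1lacZ/lacZ mice (middle) and for the difference between these (right), filled where the adjusted p was under 0.05. All 20 traction values are above 0, 3 of them filled, and in the right panel the interval of Col12a1 alone does not reach 0.

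Over both genotypes together, the mean traction effect was positive for 10 of 10 chains and 5 passed: Col12a1 (2.12), Col7a1 (1.45), Col6a2 (1.23), Col18a1 (1.07) and Col16a1 (0.88), as log2 fold changes. The share of all genes called higher was 6.5%, and the 5 chains were 9 with DESeq2, against 12.6% of all genes, and 9 with limma-voom, against 13.2%. By edgeR's quasi-likelihood test the adjusted p was 0.0203 for Col12a1, 0.0246 for Col7a1, 0.0470 for Col6a2, 0.0217 for Col18a1 and 0.0399 for Col16a1. The count of 5 fell to 0 without lacZSH replicate 2 or without lacZTR replicate 2, to 1 without WTSH replicate 1 or lacZTR replicate 3, to 2 without WTSH replicate 2 or lacZSH replicate 3 and to 3 without WTSH replicate 3, lacZSH replicate 1 or WTTR replicate 3. It was 8 without WTTR replicate 1 or lacZTR replicate 1. The calls over all genes moved too. Where 0 or 1 chain passed, 0% to 0.448% of all genes were called higher, and where 2 passed 0.623% and 1.2% were. Where 3 passed the share was 3.2% to 4.15%, and where 8 passed it was 6.13% without WTTR replicate 1 and 12% without lacZTR replicate 1.

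The test for any difference among the 4 groups called Col7a1, Col12a1, Col15a1, Col16a1 and Col18a1, which are 5 of 10 against 10.9% of all genes. Their adjusted p in edgeR's quasi-likelihood test was 0.0311, 0.0176, 0.0427, 0.0360 and 0.0186. Col15a1 was the chain that passed here and in none of the tests for traction. For 4 chains, Col7a1, Col12a1, Col15a1 and Col18a1, all 3 WTTR libraries were above the 9 other libraries, against 9.61% of all genes. The count of 5 was 0 without lacZSH replicate 2 or 3, 2 without WTSH replicate 1 or 2 or WTTR replicate 3, and 3 without WTSH replicate 3, lacZSH replicate 1 or WTTR replicate 2. It was 7 without lacZTR replicate 1, where 15.6% of all genes were called. Of all genes 0.15% and 0.155% were called in the fits with 0 chains, 2.48% to 3.92% in those with 2 and 1.23% to 11.7% in those with 3.

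Between the genotypes under traction no chain passed, and most had lower fitted levels in Tem1lacZ/lacZ scars. Of the 10 chains 9 had a lower fitted level in lacZTR than in WTTR, with a median log2 fold change of -0.98 where that of all genes was 0.01, and Col8a1 was higher by 0.24. None passed edgeR's quasi-likelihood test (0 of 10, against 0.106% of all genes), and limma-voom called 0. At an unadjusted p under 0.05 there were 6 chains, against 26.1% of all genes. DESeq2 called 2, Col12a1 and Col18a1, against 8.01% of all genes called lower by that test. The lacZTR libraries lay below the WTTR libraries without overlap for Col7a1, Col12a1, Col15a1 and Col18a1, against 13.7% of all genes. Col12a1 differed by -1.47 ± 0.45 and Col18a1 by -1.07 ± 0.28 on the log2 scale (SE, n = 3 against 3), with adjusted p of 0.0990 and 0.0951 in edgeR's quasi-likelihood test. Without WTTR replicate 1 they differed by -1.48 and -1.07, with adjusted p of 0.189 and 0.177 in edgeR's quasi-likelihood test. Without lacZTR replicate 1 they differed by -1.23 and -0.88, 8 of the 10 chains were lower and the median was -0.69. The values were -1.22 for Col6a3, -1.01 for Col6a1, -1.001 for Col6a2, -0.96 for Col15a1, -0.87 for Col7a1, -0.85 for Col16a1 and -0.35 for Col14a1.

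Between the genotypes without traction no chain passed either. The fitted level was lower in lacZSH than in WTSH for 8 of 10 chains and higher for Col8a1 (0.15) and Col12a1 (0.09), with a median log2 fold change of -0.51 against -0.01 over all genes. By edgeR's quasi-likelihood test 0 of the 10 passed (0.0106% of all genes), as with DESeq2 and limma-voom, and 2 had an unadjusted p under 0.05, against 11.7% of all genes. These were Col15a1 (-0.91 ± 0.37) and Col16a1 (-0.73 ± 0.32), and they were also the chains whose lacZSH libraries were all below the WTSH libraries, against 13.8% of all genes. Without WTSH replicate 1 their differences were -1.12 and -0.87. With traction the differences of Col15a1 and Col16a1 were -0.96 and -0.85. In the fit without WTSH replicate 1 all 10 chains were lower in lacZSH, with a median of -0.79. Col8a1 was then at -0.0393 and Col12a1 at -0.28. The comparisons of genotype and of traction share libraries, so their values are not independent of each other.

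The difference in the traction effect between the genotypes was tested directly. Of the 10 chains 8 had a smaller fitted traction effect in Tem1lacZ/lacZ mice, with a median difference of -0.46 on the log2 scale against -0.0024 over all genes. By edgeR's quasi-likelihood test 0 of 10 passed, as did 0% of all genes, and DESeq2 and limma-voom called 0 of the chains. For Col12a1 the difference was -1.57 ± 0.62 (SE, 95% interval -2.94 to -0.20), with an unadjusted p of 0.0286 and an adjusted p of 0.548 in edgeR's quasi-likelihood test across all 12 libraries, and it was -1.19 without WTSH replicate 1 and -1.56 without WTTR replicate 1. It was the only chain with an unadjusted p under 0.05, which is 1 of 10 against 8.91% of all genes. The count of 8 chains with a smaller effect and the median of -0.46 changed to 6 and -0.21 without WTSH replicate 1, to 6 and -0.12 without lacZTR replicate 1 and to 10 and -0.63 without WTTR replicate 1. For Col18a1 the interval was -1.38 to 0.34, for Col7a1 -2.01 to 0.47, for Col6a1 -1.81 to 0.90 and for Col8a1 -1.32 to 1.49. These intervals are wide enough to hold a change of more than 2-fold in the effect, so it is not shown that the genotypes respond alike or differently.

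The proportions between the chains within a library, which do not depend on library size, were compared without a test. Col12a1 took 8.06%, 12.2% and 13.5% of the counts of the 10 chains in WTSH and 44.8%, 28.5% and 25.3% in WTTR. It took 17.7%, 17.4% and 15.2% in lacZSH and 24.8%, 27.4% and 16.2% in lacZTR. The WTTR and WTSH values did not overlap, and the lacZTR values overlapped with both WTTR and lacZSH. The ratio of Col12a1 to Col14a1 counts was 0.676 ± 0.191 in WTSH, 5.53 ± 3.88 in WTTR, 1.15 ± 0.41 in lacZSH and 2.07 ± 0.73 in lacZTR (mean ± SD, n = 3). It ran from 3.16 to 10.01 in WTTR, above the highest other library at 2.77, and its highest value was in WTTR replicate 1. The ratio was thus high in the same library where Col14a1 and Col8a1 were low.

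**Figure D3:**
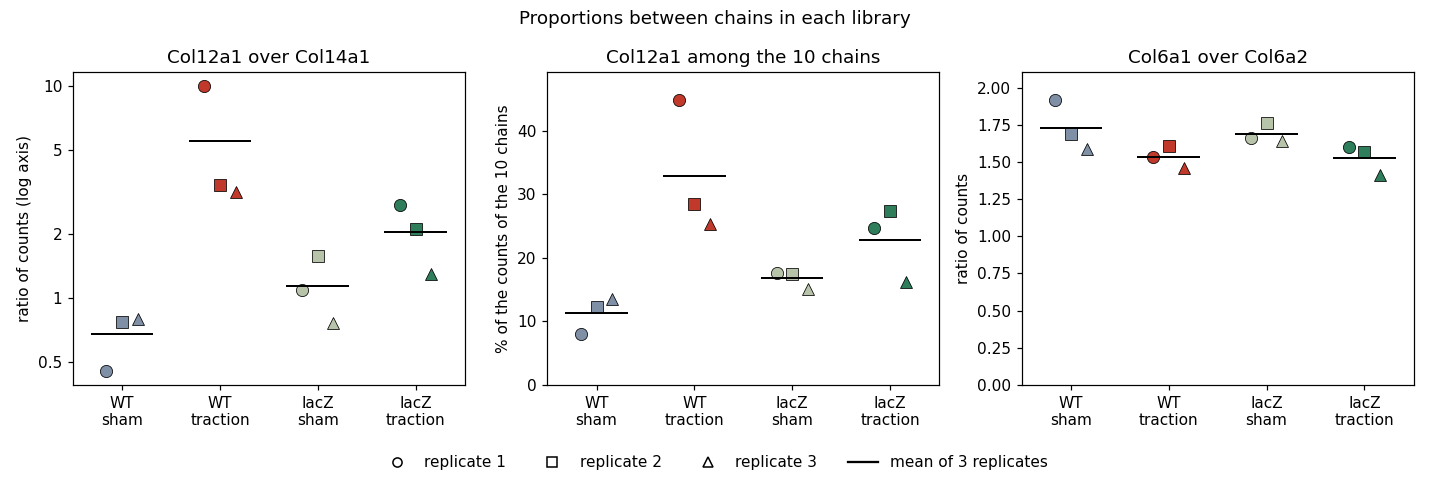
The panels plot, for each library by group, the ratio of Col12a1 to Col14a1 counts on a log axis, the share of Col12a1 in the counts of the 10 chains in percent, and the ratio of Col6a1 to Col6a2 counts, with points for replicates and a line at the mean of 3. The first ratio is 3.16 to 10.01 in WTTR and 0.456 to 0.799 in WTSH, while the ratio of Col6a1 to Col6a2 stays between 1.42 and 1.91 in all 12 libraries.

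In type VI collagen the proportion of Col6a1 to Col6a2 varied little. The ratio of Col6a1 to Col6a2 counts was 1.73 ± 0.17 in WTSH, 1.53 ± 0.07 in WTTR, 1.69 ± 0.07 in lacZSH and 1.53 ± 0.10 in lacZTR (mean ± SD, n = 3), and that of Col6a1 to Col6a3 was 1.52, 1.18, 1.45 and 1.39. Between these chains a level can be compared only per length, and per kilobase of all exons Col6a1 was 2.90 to 3.29 times Col6a2 as group means. This factor depended on the length used. Per kilobase of the longest transcript the excess was smaller, with means of 205 CPM for Col6a1 and 101 for Col6a2 in WTSH. These means were 505 and 279 in WTTR, 140 and 69.5 in lacZSH and 251 and 139 in lacZTR. Between the multiplexins, the ratio of Col18a1 to Col15a1 counts was 1.75 ± 0.27 in WTSH, 2.37 ± 0.29 in WTTR, 2.35 ± 0.39 in lacZSH and 2.53 ± 0.91 in lacZTR.

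Of all counts in a library, the 10 chains together held 0.390% ± 0.131 in WTSH, 0.996% ± 0.430 in WTTR, 0.285% ± 0.085 in lacZSH and 0.550% ± 0.203 in lacZTR (mean ± SD, n = 3). Of the counts of all collagen chains, with the fibrillar, the type IV and the further non-fibrillar chains, they held 9.88%, 12.05%, 11.3% and 12.3%. The ratio of Col12a1 to Col1a1, a chain of the main fibrillar collagen of skin, was 0.0936 ± 0.0360 in WTSH, 0.269 ± 0.123 in WTTR, 0.209 ± 0.016 in lacZSH and 0.218 ± 0.082 in lacZTR. By this ratio the 3 WTSH libraries, at up to 0.116, were below the 9 others, of which the lowest was a lacZTR library at 0.142, and the other 3 groups overlapped.

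Per kilobase of exon, the order of the chains changed between the groups. In WTSH the means were 192 CPM per kb for Col6a1, 88.0 for Col14a1, 59.7 for Col6a2, 49.7 for Col6a3, 35.2 for Col16a1, 29.0 for Col12a1, 22.5 for Col18a1, 17.5 for Col8a1, 14 for Col15a1 and 8.98 for Col7a1. In WTTR Col6a1 was again first at 473 CPM per kb, Col12a1 followed at 218, and then came Col6a2 (164), Col6a3 (147) and Col14a1 (114). Col12a1 thus had rank 6 in WTSH and rank 2 in WTTR, and it had rank 5 in lacZSH (30.9 CPM per kb) and rank 4 in lacZTR (78.3 CPM per kb). Most neighbours in these orders overlapped in their libraries. The exceptions were Col6a1, which was above the next chain without overlap in WTSH, lacZSH and lacZTR, and in lacZSH also Col8a1 over Col18a1 and Col18a1 over Col7a1. With the length of the longest transcript in place of the union of exons, Col12a1 kept these ranks in WTSH, WTTR and lacZSH and had rank 3 in lacZTR. Other chains changed places with that length. In WTSH Col6a2 took rank 2 and Col14a1 rank 3, and in lacZTR Col6a2 took rank 2 and Col14a1 rank 4. In lacZSH Col8a1 took rank 6 and Col16a1 rank 7, while in WTTR the order stayed the same.

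**Figure D4:**
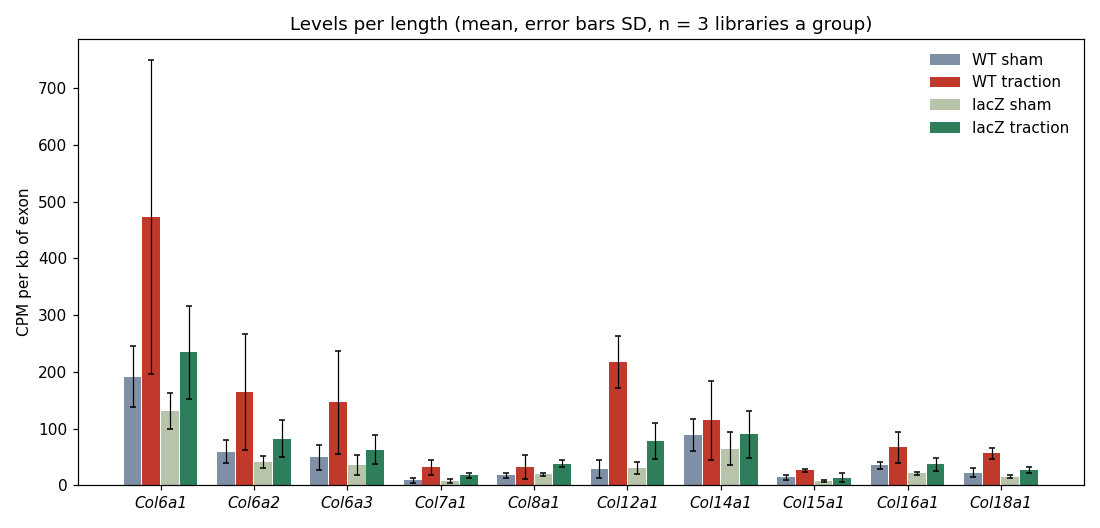
Bars give the mean CPM per kb of exon of each chain in the 4 groups, from 0, with error bars of 1 SD over 3 libraries. Col6a1 is the tallest in every group, from 131 in lacZSH to 473 in WTTR, and the bar of Col12a1 goes from 29.0 in WTSH to 218 in WTTR.

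The levels of the chains moved together across libraries, to differing degrees. Over the 45 pairs of chains the correlation of log2 CPM across 12 libraries had a median of 0.83 (0.28 to 1.00), and after subtraction of the group means the median was 0.71. The points share their group, dissection and normalization, so the values are descriptions. Col6a1 and Col6a2 had the closest levels (r = 0.996), followed by Col6a2 with Col6a3 (0.981) and Col6a1 with Col16a1 (0.974). Col12a1 went with Col18a1 (0.936) and Col7a1 (0.910) and less with its relative Col14a1 (0.457). After subtraction of the group means the order of the last 2 was the reverse, with 0.636 for Col14a1 and 0.586 for Col7a1, while Col18a1 had 0.916. Across the 12 libraries Col8a1 was the most separate, at 0.279 with Col15a1. After subtraction of the group means Col8a1 had 0.327 with Col15a1, but 0.883 with Col16a1 and 0.882 with Col6a1. Within groups the chains also shared their order, since all 10 were lowest in WTSH replicate 1 and lacZTR replicate 1, 9 were lowest in lacZSH replicate 2, and all 10 were highest in WTTR replicate 3.

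For each chain the nearest genes in level across the 12 libraries were sought among 11006 genes whose mean log2 CPM was 3 or more. Col12a1 was nearest to Col24a1, a fibrillar collagen chain (r = 0.986), and Adamts4, a metalloproteinase that cleaves proteoglycans (0.979). Col16a1 was nearest to Cdc42bpa, a kinase (0.986), and Col1a2 (0.984), and Col18a1 to Fmnl3, a formin (0.982), and Ckap4 (0.981). Col7a1 was nearest to Sorcs2 (0.936) and the integrin subunit Itgb5 (0.935), Col8a1 to Sertad4 (0.935) and the endothelial Clec14a (0.914), Col14a1 to Fndc1 (0.951) and Pcdh19 (0.937), and Col15a1 to Etnk1 (0.963) and Gopc (0.956). Besides each other, Col6a1 was nearest to Ccdc8 (0.984) and Col6a2 to Fat4 (0.983), while both nearest genes of Col6a3 were its partner chains.

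The other collagens were measured in the same fit. Of 11 fibrillar chains 10 were tested, and in Tem1WT/WT mice with traction all 10 had a higher fitted level (median log2 fold change 1.58), of which Col24a1 (2.88), Col5a1 (1.90), Col27a1 (1.76) and Col5a2 (1.30) passed. The most abundant of them, Col3a1, had a log2 fold change of 1.082 and did not pass (adjusted p = 0.105, edgeR's quasi-likelihood test). Of 17 further non-fibrillar chains outside type IV 16 were tested, with 9 higher, 7 lower and a median of 0.34. Among these Col6a4 (1.70), close to the lower limit of counts, and Col13a1 (1.47, adjusted p = 0.0391, edgeR's quasi-likelihood test), a transmembrane collagen, passed. Col17a1, the hemidesmosomal collagen of basal keratinocytes and the most abundant of this list, had a log2 fold change of -0.21 that did not pass. In Tem1lacZ/lacZ mice with traction the median was 1.15 for the fibrillar chains and 0.36 for the further non-fibrillar chains, and 0 of either list passed.

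Of 12 receptors for these collagens 11 were tested. With traction in Tem1WT/WT mice 8 were higher and 3 lower (median 0.68), and Antxr1, a surface receptor that binds collagen (1.17), and Itga1, the alpha subunit of a collagen-binding integrin (1.07), passed. The most abundant, the integrin subunit Itgb1, had 0.68 and did not pass (adjusted p = 0.0577, edgeR's quasi-likelihood test). In Tem1lacZ/lacZ mice with traction the median was 0.11 and 0 passed.

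Of 21 matrix partners and processing enzymes, all tested, 18 were higher and 3 lower with traction in Tem1WT/WT mice (median 1.04), and 7 passed. Among those that rose were Tnc, the matricellular protein tenascin-C (3.75), Bmp1, a procollagen proteinase (1.64), and Bgn, a small proteoglycan that binds type VI collagen (1.45). The most abundant, the small proteoglycan Dcn, had -0.09 and did not pass. In Tem1lacZ/lacZ mice with traction the median was 0.33 and 0 passed. Between the genotypes under traction all 21 were lower in Tem1lacZ/lacZ scars (median -0.78), of which Vwa1, a matrix protein found with type VI collagen and perlecan, passed (-0.94, adjusted p = 0.0449, edgeR's quasi-likelihood test).

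Markers of the cells in a scar moved with traction as well. In Tem1WT/WT mice 6 of 8 endothelial genes passed as higher (median log2 fold change 1.12), among them the junction protein Cdh5 (1.60), the receptor Tie1 (1.55), Emcn (1.29), Egfl7 (1.12) and the most abundant, the adhesion molecule Pecam1 (1.11). Their summed level was 328 to 487 CPM in WTSH, 833 to 962 in WTTR, 274 to 458 in lacZSH and 410 to 661 in lacZTR. Of 8 fibroblast genes 5 were higher and 3 lower (median 0.33), and 1 passed, Pdgfra (1.45). The summed levels of the 8 were 2064 to 3439 CPM in WTSH and 2591 to 4232 in WTTR. All 7 pericyte genes were higher (median 0.65) and 1 passed, Mcam (1.20), with summed levels of 362 to 574 CPM in WTSH and 447 to 994 in WTTR. Among 7 tested neutrophil genes 4 passed as higher (median 4.70). These were S100a9 (5.63) and S100a8 (5.11), which form calprotectin, and the receptors Cxcr2 (4.86) and Csf3r (4.70). Of 8 macrophage genes 7 were higher and 1 lower (median 0.47), and 1 passed, Cd14 (4.04). None of 6 smooth muscle and myofibroblast genes passed, with a median of 0.32.

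All 8 skeletal muscle genes had lower fitted levels in WTTR than in WTSH (median -2.83), as did 7 of 7 tested hair follicle genes (median -1.79, Lhx2 passing) and 8 of 8 adipocyte genes (median -1.21). Of 8 basal keratinocyte genes, the other cells that make type VII collagen, 4 were higher and 4 lower (median -0.07), with summed levels of 7669 to 10686 CPM in WTSH and 8534 to 17506 in WTTR; Krt15 passed as lower. Of 6 Schwann cell and nerve genes 5 were lower (median -0.53) and 0 passed. The most abundant genes of the lists that are not named above had log2 fold changes of 0.51 (Lum, fibroblast), 0.87 (Rgs5, pericyte), 0.55 (Postn, smooth muscle and myofibroblast), -0.16 (Mrc1, macrophage), 1.003 (Krt14, basal keratinocyte), -1.80 (Krt71, hair follicle), -0.48 (Fabp4, adipocyte), -2.73 (Myh1, skeletal muscle) and 0.06 (Mbp, nerve), and none of these passed.

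The calls in these lists for traction in Tem1WT/WT mice also moved with single libraries. Without WTSH replicate 1, where no gene passed, the median was 1.41 for the fibrillar chains, 0.74 for the receptors, 1.04 for the partners, 0.98 for the endothelial genes, 4.46 for the neutrophil genes and -1.55 for the skeletal muscle genes. Without WTTR replicate 1 the calls were 3 fibrillar chains, 4 partners, 3 endothelial genes, 2 pericyte genes, 1 smooth muscle and myofibroblast gene and 1 neutrophil gene, all higher, and 2 skeletal muscle genes, lower. No gene of the other lists passed in that fit. The medians of the lists given for WTSH replicate 1 were then, in the same order, 1.82, 0.28, 0.94, 1.09, 2.20 and -4.14. Between the genotypes under traction Vwa1 lost its call when WTSH replicate 1, WTTR replicate 1 or lacZTR replicate 1 was left out, and of the 21 partners 21, 20 and 19 were lower in these fits. The part of these cell types in the levels of the collagen chains was not tested.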

How the data were processed

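Poly(A) RNA of 12 scars was sequenced from stranded libraries. Per the labels and the methods, the authors trimmed reads with fastp 0.20.0, aligned them to GRCm38 with HISAT2 2.1.0 and counted them per gene with featureCounts 2.0.0. The deposited values are raw counts, whole numbers without normalization. The annotation, strand setting and treatment of multimapped reads are not given in the sources used here. Col7a1 shares 36 exonic bases with Mir711 and Col15a1 shares 14 with the antisense gene Gm12426, so a few of their reads could belong to either.

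Counts were filtered with filterByExpr, normalized by TMM and fitted with edgeR 4.0.16 (robust quasi-likelihood, 1 model of 4 groups, 8 residual degrees of freedom, R 4.3.3). Tests were two-sided, with Benjamini-Hochberg adjustment over 18853 genes. The study's methods name DESeq2, used here as an alternative. Alternatives were DESeq2 1.42.0 and its size factors, limma-voom 3.58.1 with sample weights, upper quartile normalization, no filter or at least 10 counts in every library, a fit without robust estimation, the replicate number as a block, a GC and length correction, only the groups compared, an adjusted p under 0.01 and each library left out. Exon lengths came from GENCODE vM21 and figures from Python 3.11.15 with matplotlib 3.10.9. Tests were tried on simulated data. No library was a copy of another. The labels do not say more than that the libraries of a group are separate samples, and p-values measure the spread between these.

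All 10 chains are named. Genes of other lists are named where they passed and their mean log2 CPM was 1 or more (at most 4 per list and comparison, by size) or were the most abundant, in the comparisons the text describes for that list. 1 gene that this rule takes is not reported here, and Col6a4, below that limit, was added after its value was seen to complete a count. Also named are the 2 nearest genes of each chain by correlation of log2 CPM (prior count 2). The chains and lists were chosen with earlier results of these data known, and the count of chains with WTTR above the 9 other libraries was added after their levels were seen. Col9a1, Col2a1, Gp6 and Ly6g fell below the filter, and Krt85 was not used here.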

Additional observations from a re-analysis of the deposited data

How the results depend on the processing

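For traction in Tem1WT/WT mice 9 of the 10 chains kept a higher level under all 22 alternatives, and Col14a1 under 21. Of these alternatives Col12a1 passed in 19, Col18a1 in 16 and Col7a1 in 15. The count of 3 chains was 7 with DESeq2 (11.9% of all genes called higher, against 5.61%) and 0 to 3 with a library left out (0% to 8.13%). It was 0 with the groups compared alone, where no gene passed, and 0 at an adjusted p under 0.01. No gene reached that limit, since the smallest adjusted p of any gene was 0.0154 in edgeR's quasi-likelihood test. The count of 0 for traction in Tem1lacZ/lacZ mice was 1 with limma-voom (1.84% of all genes), and that of 0 between genotypes under traction was 2 with DESeq2 (8.01%). Over both genotypes the count was 5, with 6.5% of all genes called higher. It was 3 with upper quartile normalization (4.01%), 9 with DESeq2 (12.6%), 9 with limma-voom (13.2%) and 3 with the GC and length correction (5.24%). At an adjusted p under 0.01 it was 0, where the smallest adjusted p of any gene was 0.00776 in edgeR's quasi-likelihood test. With a library left out it was 0 to 8 (0% to 12%). For any difference among the 4 groups the count of 5 was 3, 8, 8, 2 and 0 under upper quartile normalization, DESeq2, limma-voom, the GC and length correction and the limit of 0.01. The shares of all genes in the first 4 were 7.25%, 28.7%, 19.8% and 7.99%, against 10.9%. With a library left out the count was 0 to 7 (0.15% to 15.6%). Upper quartile normalization moved the median of all genes to -0.12 for traction in Tem1WT/WT mice, and of 1673 genes called 734 were higher, against 1057 of 1725 with TMM and 621 of 748 with limma-voom. The causes were not tested.

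Directions turned in the cases that follow, none of which had passed the test. Between genotypes without traction Col7a1 was 0.018 with the replicate block and 0.31 with the GC and length correction. For the difference in traction effect Col15a1 was 0.0194 with upper quartile normalization, 0.0063 without a filter and 0.18 with limma-voom, and Col16a1 was 0.0375 with limma-voom. With a library left out, the ranges that crossed 0 were, for traction in Tem1WT/WT mice, -0.15 to 0.74 (Col14a1). Without traction between genotypes they were -0.51 to 0.35 (Col7a1), -0.0393 to 0.28 (Col8a1) and -0.28 to 0.41 (Col12a1), and with traction -0.16 to 0.77 (Col8a1) and -0.69 to 0.20 (Col14a1). For the difference in traction effect they were -0.75 to 0.10 (Col6a1), -0.76 to 0.17 (Col6a2), -0.29 to 0.65 (Col8a1), -0.23 to 0.66 (Col14a1), -0.58 to 0.31 (Col15a1) and -0.34 to 0.22 (Col16a1).

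The deviations of same-numbered libraries of different groups had correlations of -0.32 to 0.25 over genes. Differently numbered libraries were not compared, so these values do not show whether the numbers mark pairs. The labels name no pairs, and the numbers were not taken as pairs. With the replicate block 3 chains passed for traction in Tem1WT/WT mice, among 1467 genes called in place of 1725. With 3 libraries a group, the intervals of the difference in traction effect span more than 1 log2 unit for every chain. The lowest count of any chain in a library was 1396, for Col15a1, so counting error is small beside the spread between libraries.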
